A study of Mus musculus with 4 samples.

Results

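The cells described are vascular smooth muscle cells of the ascending aorta and aortic arch of control mice. A barcode of either control library was kept where it had 1000 UMIs and 500 detected genes or more and no more than 10% of its UMIs from mitochondrial genes. No other gene level was used. A UMI is a molecular tag that marks 1 captured RNA molecule. The rule kept 5694 cells of 13468 in the series, 2429 from the library called WT 1 and 3265 from WT 2.

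The controls were C57BL/6J mice, designated GFPiSMC or WT, with the transgene Myh11-CreERT2, a tamoxifen-dependent Cre recombinase under the smooth muscle myosin promoter, and the reporter mT/mG. Recombination switches that reporter from tdTomato to green fluorescent protein (eGFP). Every mouse had received tamoxifen for 5 days, 1 mg per day from 4 weeks of age or 2 mg per day from 11 weeks, and was 12 weeks old at analysis. Neither the course given to a library nor its number of mice is stated in the labels. Aortic segments were digested in the cold, and viable single cells that were GFP-positive were sorted, so only cells in which Cre under the Myh11 promoter had acted could enter. The other 2 libraries, from mice whose Tgfbr1 and Tgfbr2 were floxed, enter no value below.

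Smooth muscle cells of the aortic wall contract through actin and smooth muscle myosin filaments, whose genes are known targets of serum response factor (SRF) with its coactivator myocardin. In a large elastic artery the same cells also make and maintain the elastic lamellae, the collagen between them and a basement membrane around each cell. Differentiated cells of this kind seldom divide, and their level of contractile and matrix genes is known to shift with injury, stretch and growth factor signals.

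Both libraries were deep and much alike. WT 1 held 35255748 UMIs and WT 2 held 49723949 in the kept cells. The median cell had 14768 UMIs and 3897 genes in WT 1, and 15383 UMIs and 3992 genes in WT 2. The median mitochondrial share was 4.62% and 3.86%. A total of 197 cells (8.11%) of WT 1 and 162 cells (4.96%) of WT 2 had fewer than 5000 UMIs. The libraries shared 3 cell barcodes. The labels state 2597 and 3420 cells before a filter and 2151 and 3000 after it, with criteria not given in the sources used here, against 2769 and 3565 barcodes in the files. Levels are given as CPM, the UMIs of a gene scaled to counts per 1000000 UMIs of the library's kept cells. Because 1 UMI stands for 1 molecule tagged near its 3′ end, levels of different genes were set side by side without division by length. With 1 group of 2 libraries and cells that are no replicates of it, no test was possible and no p-value is given. Each library's value stands on its own, and their spread is the error.

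The cells matched their label. The 10 smooth muscle markers Myh11, Acta2, Tagln, Eln, Mgp, Cnn1, Myocd, Lmod1, Smtn and Mylk together took 5.34% of a median cell's UMIs in WT 1 and 5.58% in WT 2, with a 5th percentile of 3.48% and 3.47%. In 3 cells of WT 1 and 1 cell of WT 2 they were under 10% of that median. Markers of other cell types were low. The 10 endothelial markers summed to 29.6 and 35.4 CPM, with Cdh5, Emcn and Tek at 0 UMIs. Nearly all of that sum was Pecam1 (14.2 and 17.5 CPM, in 15.6% and 17.6% of cells) and Plvap (14.2 and 17.0 CPM, in 16.3% and 19.97% of cells). In 71 cells of WT 1 and 133 of WT 2 there were 3 or more endothelial UMIs. Cells with 3 or more from at least 2 genes numbered 42 and 60. The 10 fibroblast markers summed to 14.2 and 14.6 CPM. The 10 macrophage markers reached 1.14 and 3.36 CPM, with Ptprc and Adgre1 at 0 UMIs. The lists for lymphocytes, red blood cells, Schwann cells and neurons, mesothelium, cardiomyocytes and fat cells each summed to under 5 CPM. Detection shares below therefore stand without a share from a cell type that lacks the gene, since no other type was set apart here and the level of free RNA in the droplets could not be gauged.

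The transcript pool was steep. In WT 1 the 10 most abundant genes held 13.7% of all UMIs, the top 100 held 36.5%, and 252 genes held 50% of all UMIs. In WT 2 these were 13.4%, 35.9% and 259 genes. At the other end, 12019 and 12084 genes reached 1 CPM, and 2704 of all 32287 listed genes (8.37%) had a UMI in at least 50% of the cells of both libraries. That last number depends on depth: in the 2232 and 3103 cells of at least 5000 UMIs, each thinned to 5000, it was 978. By library it was 995 and 1024, against 2727 and 2906 in all cells unthinned. The 84 ribosomal protein genes took 12.1% and 12.3% of UMIs and the 13 mitochondrial genes 4.64% and 3.89%.

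Contractile transcripts stood at the head of the nuclear protein-coding genes. Malat1, a nuclear long noncoding RNA, was the most abundant transcript, at 34800.6 CPM in WT 1 and 37191 CPM in WT 2. Acta2, smooth muscle alpha-actin, followed with 22382 and 23874 CPM, a mean of 23128 ± 1055 CPM (SD, n = 2 libraries). Next by mean level came Tmsb4x, a thymosin that binds free actin monomers, with 13761 and 13379 CPM. Tagln, the actin-bundling protein SM22-alpha, held 13005 and 13044 CPM, and Myl6, the essential myosin light chain, 9128 and 8859 CPM. The gap between Tmsb4x and Tagln was small in both libraries, and no library of one overlapped the other. Gm42418, a gene model that overlaps a ribosomal RNA repeat, stood at 14496 CPM in WT 1 and 10236 CPM in WT 2 and is the clearest difference between the libraries among the leading genes.

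**Figure D1:**
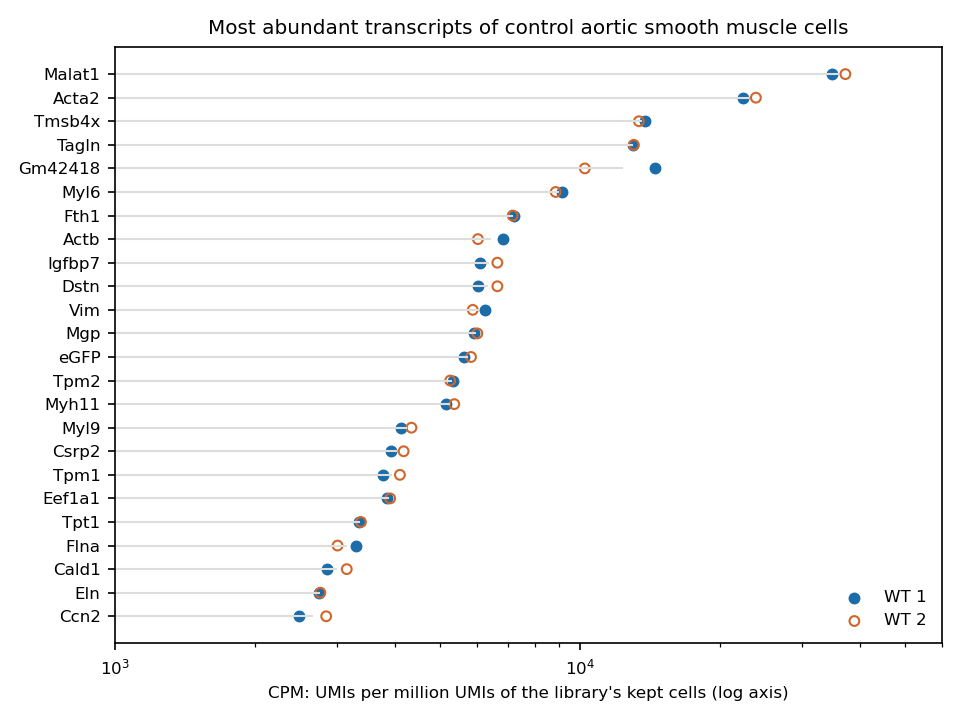
Level of the 24 most abundant genes, mitochondrial and ribosomal protein genes left out, in WT 1 (filled points) and WT 2 (open points), as CPM on a log axis. The points of a gene lie close together except for Gm42418, at 14496 and 10236 CPM.

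Further down the same ladder, Mgp, matrix Gla protein, an inhibitor of vascular calcification, stood at 5908 and 6012 CPM. The reporter eGFP, which is driven by a ubiquitous promoter, reached 5632 and 5826 CPM. Unrecombined tdTomato was at 0.028 and 0.141 CPM. Myh11, the smooth muscle myosin heavy chain that defines the lineage, had 5153 and 5363 CPM, and Eln, the elastin precursor, 2739.8 and 2763 CPM. Mgp, eGFP, Myh11 and Eln stood in this order in both libraries, with no overlap between the libraries of neighbours. The 5 marker genes lie, in mm10, at chr19:34241090-34255590 (Acta2), chr9:45929619-45936058 (Tagln), chr16:14194535-14291372 (Myh11), chr6:136872435-136875823 (Mgp) and chr5:134702593-134747323 (Eln).

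Cells of equal total differ in their counts by chance, so the variation between cells is given as excess CV: the coefficient of variation of a gene's share across cells after the part that counting alone gives has been subtracted. An excess CV of 50% or more in both libraries, among the 2878 genes of at least 50 CPM in both, is called variable here. This held for 358 genes, or 12.4%. Taken singly, WT 1 had 429 such genes (14.9%) and WT 2 had 422 (14.7%). The share depended little on level, with 13.7%, 9.92%, 13.7% and 10.7% of genes from the lowest of 4 level classes to the highest. The median excess CV was 31.1% in WT 1 and 30.5% in WT 2. In 22.1% and 21.3% of genes the estimate did not exceed 2 standard deviations of counting. The libraries gave much the same picture gene by gene: across the 2562 genes with a positive estimate in both, log excess CV correlated with r = 0.89, as a description over genes, which are not replicates.

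**Figure D2:**
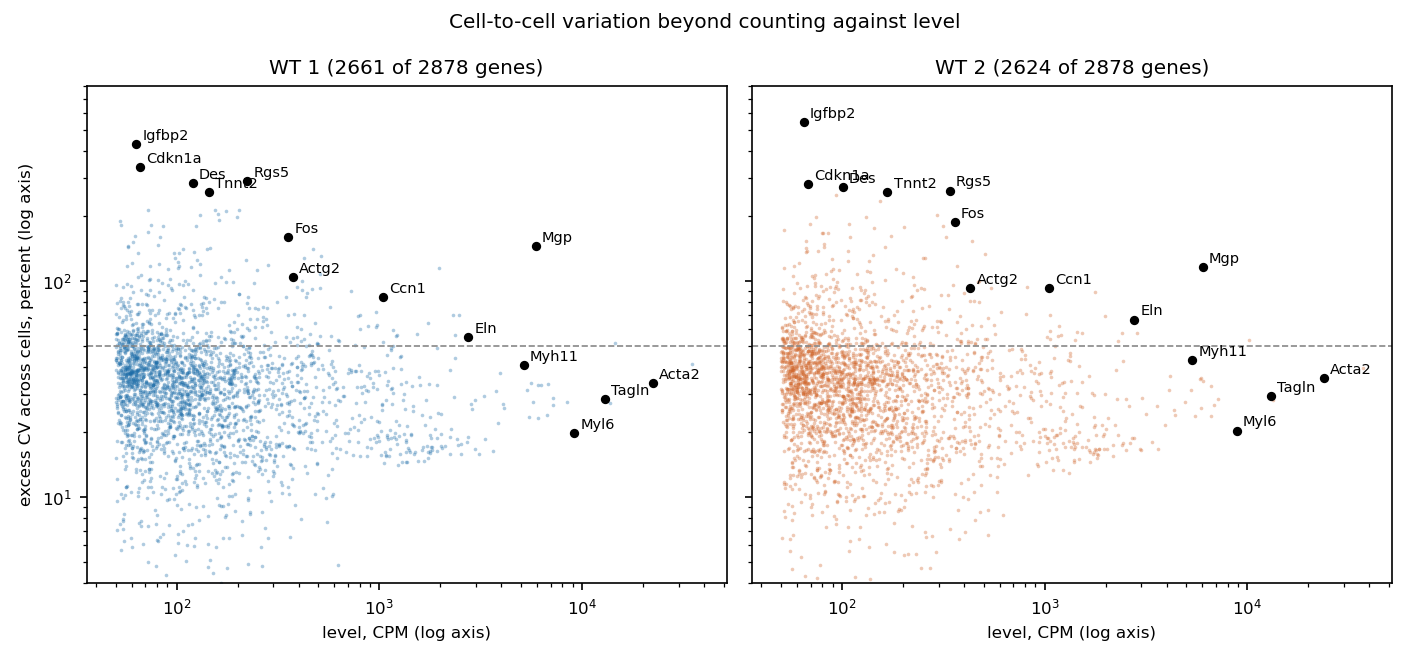
Excess CV across cells, in percent, against level in CPM, both on log axes, for genes of at least 50 CPM in WT 1 (left) and WT 2 (right); genes at or below 0 are not drawn, those under 4% lie off the axis, and the dashed line marks 50%. Acta2, Tagln and Myl6 lie under the line and Mgp well above it at a similar level.

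The 5 markers differed widely in it. Tagln was the most even, with an excess CV of 28.6% in WT 1 and 29.4% in WT 2. Acta2 had 33.8% and 35.7%, and Myh11 40.9% and 43.3%. Eln, at 55.2% and 66.5%, and Mgp, at 146% and 116%, were called variable. In cells of at least 5000 UMIs the 95th percentile of Acta2 was 3.33 times the 5th percentile in WT 1 and 3.84 times in WT 2. For Myh11 these ratios were 4.37 and 4.86, for Eln 7.66 and 8.39, and for Mgp 11.1 and 11.4. The tenth of cells with the most Mgp held 34.3% of its UMIs in WT 1 and 32.9% in WT 2, against 17.0% and 17.2% for Acta2. Without the 1% of cells highest in Mgp its excess CV was 77.0% as a mean of the libraries, against 130.9% with them. All 5 markers were nonetheless detected in almost every cell: the lowest share was 98.6% for Eln in WT 1, with a 95% Clopper-Pearson interval of 98.1% to 99.1% that covers counting error only. The reporter eGFP, which is no smooth muscle gene, had an excess CV of 33.7% and 35.5%, close to that of Acta2 in each library.

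**Figure D3:**
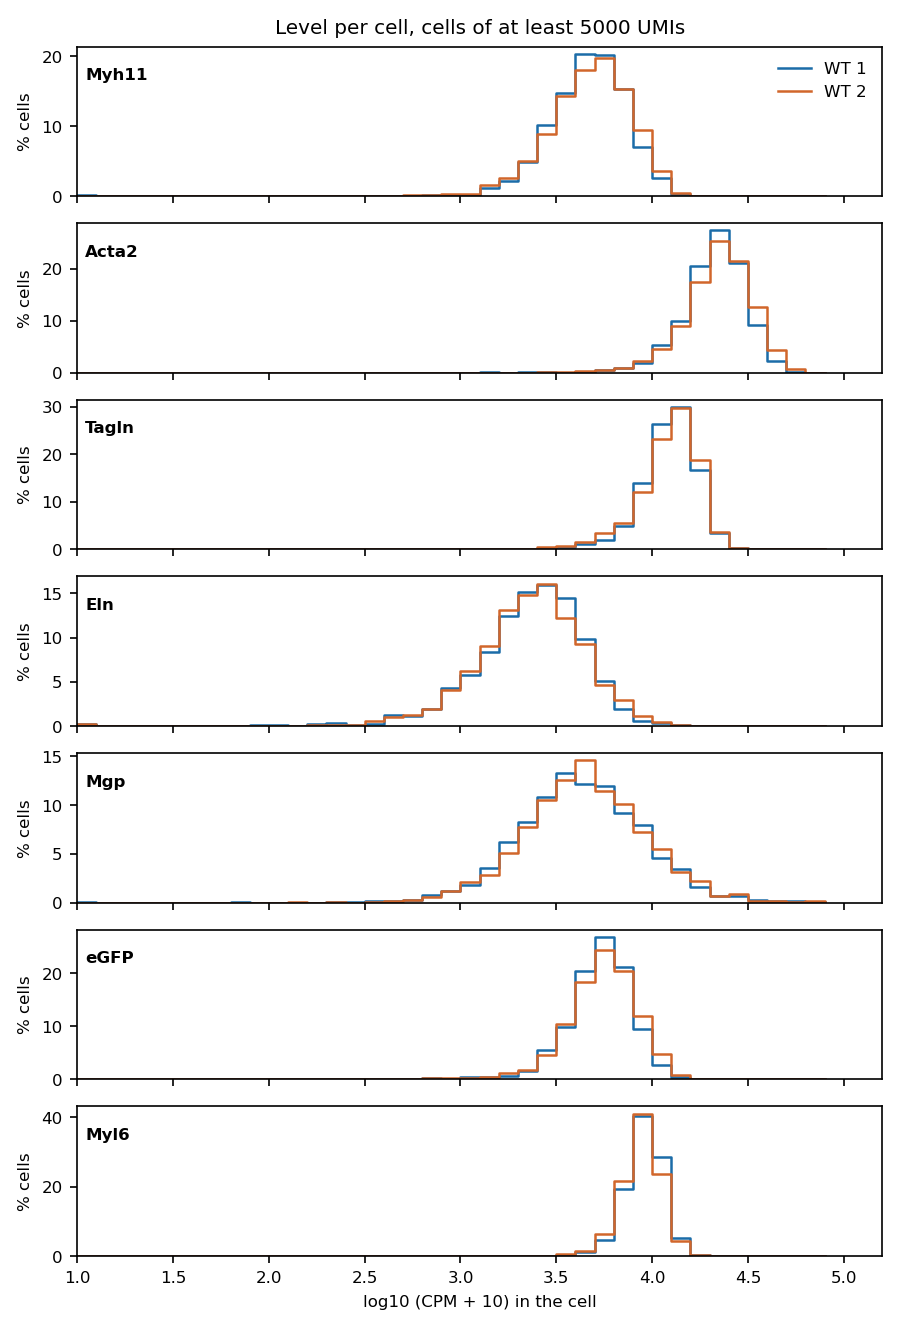
Distribution of the level per cell, as log10 of CPM + 10, in cells of at least 5000 UMIs for the 5 markers, eGFP and Myl6; lines give the percent of cells in each bin for WT 1 and WT 2. Each gene has 1 main peak in both libraries, narrowest for Myl6 and broadest for Mgp.

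Across the thin filament and actin-binding list, 2 of 20 genes above 50 CPM were variable, beside 12.4% of all genes tested. The list summed to 63896 and 65469 CPM, or 6.39% and 6.55% of all UMIs, with Acta2 at 35.8% of it. Its even members included Cald1 (caldesmon, which restrains actomyosin), at 25.7% and 24.4%, Lmod1 (leiomodin 1, an actin filament nucleator), at 25.7% and 26.3%, and Cfl1 (cofilin, which severs filaments), at 22.7% and 21.5%. The variable members were Actg2 and Mustn1. Actg2, the gamma-actin typical of visceral smooth muscle, was found at 373 and 430.5 CPM in 68.9% and 73.2% of cells, with an excess CV of 104% and 93.1%. Mustn1, a small muscle protein linked to regeneration, had 508 and 475 CPM and an excess CV of 108% and 100.2%. The cardiac actin Actc1 was close to absent, at 0.482 and 0.603 CPM.

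Myosin and its regulators summed to 25786 and 25961 CPM, and 3 of 16 tested members were variable (18.75%, beside 12.4% of all genes). The motor's light chains were among the most even abundant transcripts: Myl6 at 19.9% and 20.4%, and Myl9, the regulatory light chain, at 4128 and 4338 CPM with 26.0% and 25.3%. Mylk, the kinase that phosphorylates Myl9, had 1442 and 1532 CPM and an excess CV of 32.7% and 34.3%. The variable members were Myh9 (71.3% and 76.5%) and Myh10 (50.1% and 54.2%), both nonmuscle myosin heavy chains, and Prkg1 (54.3% and 55.1%), the cGMP-dependent kinase. Transcription factors of the muscle programme were rare beside their targets. Srf had 19.0 and 18.2 CPM and Myocd 81.2 and 66.7 CPM, while Mef2c, the most abundant of the list, had 337 and 317 CPM. Of the 6 factors tested, Myocd and Tead1 were variable (33.3%, beside 12.4% of all genes).

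The CArG box, the 10-base element that SRF binds, was searched for on both strands in the 250 bases before the start of each gene in RefSeq's promoter table (GRCm38.p6). It was present in 3 of 18 genes of the thin filament list, 2 of 14 of the myosin list and 3 of 26 of the focal adhesion list, beside 1.62% of all 27025 genes and 2.32% of the 2286 tested genes with a promoter. It was also in 2 of 18 immediate early genes and 1 of 9 muscle transcription factors. Among basement membrane genes it was in 1 of 13, and among ion channel genes in 1 of 17. None of 13 elastic fibre or 12 interstitial collagen genes had it. These counts are over the members in the table, which do not include Myh11, Tagln, Actg2, Actb or Eln. The thin filament genes with a match were Actc1, which was close to absent in these cells, Actg1 and Cnn2. Acta2, Tpm1, Tpm2 and Mylk had a promoter in the table but no match. A match describes the letters only. The light chains Myl6 and Myl9, both abundant and even, carry one each, in capitals, starting 50 and 161 bases before the start site:
Myl6 (chr10:128493010-128493259, minus strand): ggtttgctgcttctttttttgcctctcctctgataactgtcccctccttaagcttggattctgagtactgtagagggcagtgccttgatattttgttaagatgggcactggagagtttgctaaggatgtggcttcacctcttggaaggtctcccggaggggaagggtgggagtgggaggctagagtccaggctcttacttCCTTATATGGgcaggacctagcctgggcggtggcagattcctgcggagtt
Myl9 (chr2:156775214-156775463, plus strand): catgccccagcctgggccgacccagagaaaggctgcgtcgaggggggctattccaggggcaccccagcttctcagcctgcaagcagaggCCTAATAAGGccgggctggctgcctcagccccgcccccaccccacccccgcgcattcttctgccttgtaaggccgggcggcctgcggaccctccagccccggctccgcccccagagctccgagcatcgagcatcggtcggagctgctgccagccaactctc

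Integrins, focal adhesion proteins and intermediate filaments anchor the contractile apparatus, and with 4 variable genes of 29 they were near the 12.4% background. The list took 2.48% and 2.38% of all UMIs. Vim, vimentin, was the main intermediate filament, with 6258 and 5876 CPM and an excess CV of 33.0% and 35.7%. Flna, filamin A, a crosslinker of actin, had 3298 and 3009 CPM, and Itga8, the integrin subunit that pairs with Itgb1, 1767 and 1656 CPM. Des, desmin, the muscle intermediate filament, was the opposite of Vim. It was found in only 20.8% of WT 1 cells and 20.5% of WT 2 cells, although its level of 120.1 and 100.6 CPM would put a UMI into 77.5% and 75.01% of cells if every cell had the same share. Cells with 10 or more Des UMIs were 6.50% and 5.73% of all and held 72.1% and 64.7% of its UMIs. The other variable members were Itga5 (123% and 124%), the alpha subunit of the fibronectin receptor, Cav1 (53.0% and 53.1%), caveolin 1, and Crip1 (69.8% and 69.1%), a small LIM protein.

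Desmin was 1 of 54 genes (1.88% of those tested) whose detection fell under 0.8 of the counting expectation in both libraries. The 10 with the lowest ratio, unnamed gene models left out, were Des, Igfbp2, Egr1, Tnnt2, Rgs5, Sncg, Cdkn1a, Lamc3, Klf2 and Meg3. Igfbp2, a secreted binder of insulin-like growth factors, had the largest excess CV of all genes tested: 16.3% and 15.5% of cells had a UMI, where 57.1% and 60.4% were expected, and the excess CV was 432% and 546%. The 2.59% and 2.51% of cells with at least 10 UMIs held 61.2% and 67.0% of all Igfbp2 UMIs. Rgs5, a regulator of G-protein signalling known from pericytes and arterial smooth muscle, had 223 CPM in WT 1 and 340.3 CPM in WT 2. It was found in 35.03% and 42.2% of cells where 90.7% and 96.5% were expected, and the 8.56% and 12.5% of cells with 10 or more UMIs held 77.4% and 84.4% of them. Tnnt2, cardiac troponin T, was detected in 35.8% and 37.1% of cells against 82.3% and 88.1% expected. Cdkn1a, the cell cycle inhibitor p21, was detected in 25.5% and 33.1% against 58.7% and 62.0%. Sncg, gamma-synuclein, was in 37.4% and 29.98% against 79.8% and 72.9%.

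**Figure D4:**
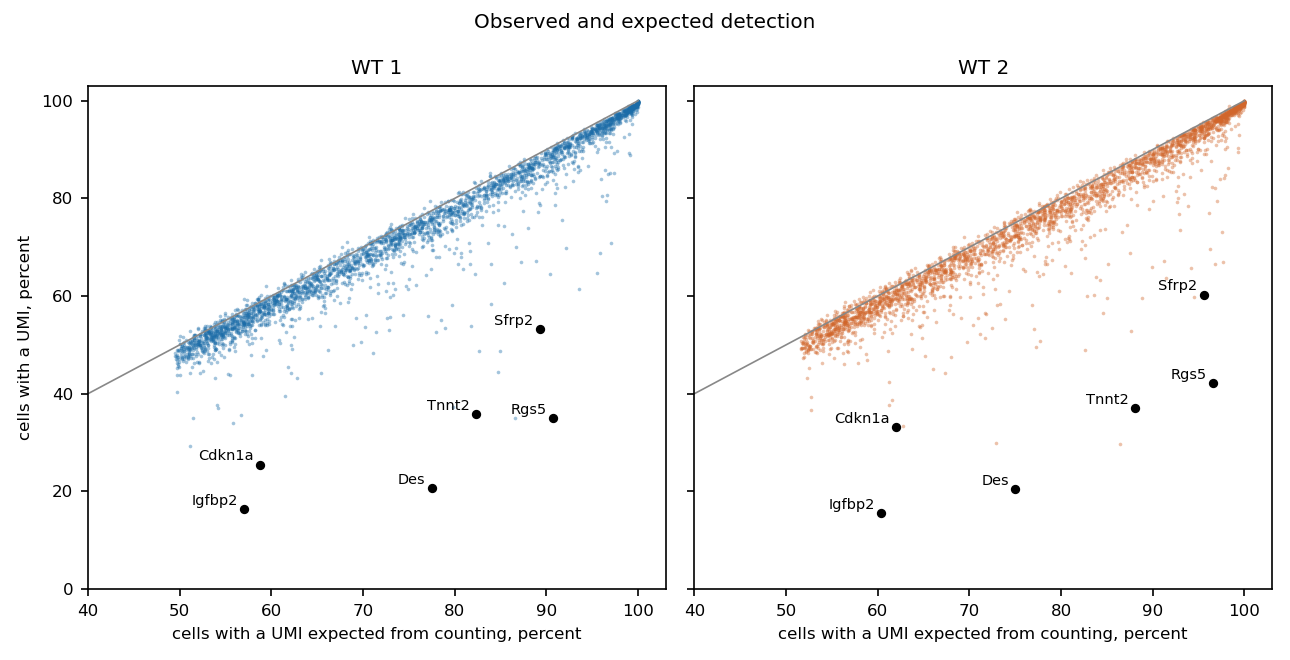
Percent of cells with a UMI against the percent expected if each cell had the same share of the gene, for the 2878 genes of at least 50 CPM in WT 1 (left) and WT 2 (right); the line marks equality. Most genes lie just under the line, and Des, Igfbp2, Rgs5, Tnnt2, Cdkn1a and Sfrp2 far below it.

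Whether the concentrated genes sat in the same cells was read from their covariation. It is given as a counting-corrected correlation: the correlation of 2 genes' shares across the cells of 1 library after the counting part of each variance is taken out. All such values share the cell totals that the counts were divided by. Rgs5 and Tnnt2 were hardly related, at -0.01 and -0.09, and Des and Rgs5 at -0.02 and -0.08. Des and Tnnt2 were weakly related, at 0.36 and 0.23. Partners were sought among genes of at least 100 CPM and 30% excess CV in both libraries. The closest to Rgs5 were Htra1 (0.57 and 0.63), a secreted serine protease, and Sema3c (0.55 and 0.65), a semaphorin with a role in outflow tract formation. Lrrc17 (0.54 and 0.63) came next. The gene farthest from Rgs5 was Bcam (-0.43 and -0.50), a laminin receptor. Among the 205120 pairs of the 641 genes with at least 100 CPM and 30% excess CV in both libraries, the median correlation was 0.03 in each, and 0.242% of pairs reached 0.5 in both.

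In the elastic fibre list 6 of 13 tested genes were variable, and in the interstitial collagen list 7 of 11, beside 12.4% of all genes. Elastic fibre genes summed to 6713 and 6875 CPM, of which Eln was the largest. Mfap4, a microfibril-associated glycoprotein, had 970 and 1059 CPM and an excess CV of 62.4% and 58.8%. Fbln5, fibulin 5, which ties elastin to cells and microfibrils, had 492 and 526 CPM and 51.1% and 67.9%. Fbn1, the fibrillin of adult microfibrils, was more even, with 184 and 191 CPM and 41.2% and 40.1%. Fbn2, the fetal fibrillin, had 0 and 2 UMIs in all. The crosslinking enzymes Lox (185 and 179 CPM) and Loxl1 (178 and 179 CPM) lay close to each other. The most variable member was Ltbp2, a latent TGF-beta binding protein of microfibrils, at 145% and 168%.

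The collagen list summed to 5575 and 5836 CPM. Although called interstitial here, it also holds Col15a1 and Col18a1, collagens of the basement membrane zone. Col3a1 (1286 and 1300.2 CPM) and Col1a2 (1279.5 and 1331 CPM) led it and overlapped between libraries, and Col18a1 (1106 and 1240.1 CPM) followed. Col1a1, the partner chain of Col1a2, was lower, at 578 and 566 CPM, and was variable at 55.8% and 57.0%. Col14a1, a fibril-associated collagen, was the most variable, at 136% and 133%, and was found in 52.6% and 56.6% of cells. In the basement membrane list Col4a6 and Lama4, 2 of 11 tested genes, were variable, or 18.2% beside 12.4%. Its leaders were Sparc (1929 and 2415 CPM), a collagen-binding glycoprotein, Npnt (902 and 935 CPM), nephronectin, a ligand of the Itga8 integrin, and Col4a1 (814 and 851 CPM). Laminin chains were uneven in level: Lamb2 had 436 and 378 CPM, Lamc1 105 and 102 CPM, and Lamb1 6 UMIs in each library. Of the proteoglycans, Bgn (biglycan) was abundant and even, at 2339 and 2282 CPM with an excess CV of 29.1% and 28.4%. Dcn (decorin), a fibroblast-rich relative, had 10.8 and 8.87 CPM.

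Matricellular proteins and regulators of calcification were the most variable matrix group: 10 of 11 tested genes were called, beside 12.4% overall. The list summed to 16087 and 16249 CPM. After Mgp came Ccn2, connective tissue growth factor, with 2481 and 2844 CPM and an excess CV of 69.9% and 57.8%. Sost, sclerostin, a secreted Wnt inhibitor best known from bone, had 1745 and 1537 CPM in 97.3% and 97.6% of cells, with 64.0% and 57.9%. Fn1, fibronectin, had 515 and 507 CPM and 130.3% and 134%. Without the 1% of cells highest in Fn1 its excess CV was 87.2% as a mean of the libraries. Ccn1, a matricellular protein induced by stretch, had 1038 and 1054 CPM and 84.6% and 92.7%. Clu, clusterin, was the member that was not called, at 49.4% and 47.3%. Spp1, osteopontin, a marker of dedifferentiated cells, had 91 UMIs in 5 cells of WT 1 and 0 in the 3265 cells of WT 2, which allows a share of up to 0.0919% of cells with a UMI there.

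Receptors that set vascular tone were mostly near the limit of detection, and soluble guanylate cyclase was not. Of the 24 genes in the list 7 reached 50 CPM in both libraries, and 4 of these were variable (57.1%, beside 12.4% of all genes). The angiotensin receptor Agtr1a had 1.62 and 2.13 CPM and a UMI in 2.14% and 3.09% of cells. The endothelin receptor Ednra had 6.13 and 7.74 CPM in 6.63% and 7.75% of cells. Tbxa2r, the thromboxane receptor, was the highest of the contractile agonist receptors, with 48.0 and 45.0 CPM, and Avpr1a, the vasopressin receptor, had 0 UMIs. Higher in level was Npr1, a natriuretic peptide receptor, at 100.7 and 96.5 CPM. The subunits of soluble guanylate cyclase, the target of nitric oxide, were at 424 and 435 CPM (Gucy1a1) and at 284 and 283 CPM (Gucy1b1). At the median depth of 14768 and 15383 UMIs, 1 UMI in a cell equals 67.7 and 65.0 CPM, so the share of cells that hold a receptor cannot be read from such counts.

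For ion channels and calcium handling, 3 of 8 tested genes were variable, or 37.5% beside 12.4% of all genes. They were Abcc9 and Kcnma1, which form ATP-sensitive and calcium-activated potassium channels, and Ryr2, the ryanodine receptor. Atp2a2, the calcium pump of the sarcoplasmic reticulum, led with 603 and 600.5 CPM. Kcnmb1, the smooth muscle subunit of the Kcnma1 channel, was higher than the pore itself, at 219 and 222 CPM against 70.6 and 76.0 CPM, and was even at 26.5% and 24.7%. Cacna1c, the L-type calcium channel, had 28.7 and 26.4 CPM.

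Within the TGF-beta pathway 6 of 12 tested genes were variable. The ligand Tgfb2 (152 and 134 CPM) was above Tgfb3 (71.1 and 67.5 CPM) and Tgfb1 (27.2 and 24.8 CPM) in both libraries. The receptors Tgfbr1 (80.0 and 81.5 CPM) and Tgfbr2 (51.1 and 44.6 CPM) were lower than Tgfb2 in both libraries. Tgfbr1 had an excess CV of 40.1% and 47.5%, above the median of all genes, and Tgfbr2 was under the level minimum in WT 2. Pmepa1, a target that feeds back on the pathway, was the highest member, with 1148 and 1213 CPM and an excess CV of 31.6% and 33.8%. Smad7, the inhibitory SMAD and itself a target, was patchier, with 172 and 111 CPM and an excess CV of 80.4% and 81.4%, and was higher in WT 1. In the Notch and Wnt list 5 of 6 tested genes were variable, or 83.3% beside 12.4% of all genes. They were led by Hes1 (114% and 115%), a Notch target, Wif1 (104% and 109%), a Wnt inhibitor, and Wnt16 (78.3% and 82.1%).

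Stress and signal-response genes were often variable. Of the immediate early genes tested 13 of 14 were variable, and of the heat shock genes 6 of 11, beside 12.4% of all genes. Fos had 356 and 359 CPM and was found in 64.8% and 66.6% of cells where 95.5% and 96.8% were expected, with an excess CV of 159.9% and 189%. Egr1 had 175 and 154 CPM in 35.1% and 29.7% of cells, with 212% and 236%. Jund, a member of the same AP-1 family, was the exception, at 795 and 896 CPM with 40.9% and 39.7%. Fos correlated with Egr1 at 0.38 and 0.57 and with Jun at 0.27 and 0.44, and with the heat shock gene Hspa1a at 0.08 and 0.16. The cells were dissociated and sorted alive, and the part of that handling in these levels was not tested. Among heat shock genes, Hspb1, a small chaperone abundant in muscle, had 1979 and 1770.3 CPM and 116% and 89.2%. Hspa1a had 198 and 315 CPM, with an excess CV of 199% and 179% that was 122% as a mean of the libraries without the 1% of cells highest in it. Hspa1b had 155 and 203 CPM. Their 250-base promoters are 98.8% identical and the genes are near-identical copies, so how reads were divided between them is uncertain. Their shares correlated at 0.82 and 0.76.

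The heat shock element GAANNTTC was found, on either strand, in the 250 bases before the start of 6 of 9 heat shock genes and in 7.73% of all 27025. The promoter of Hspa1a is shown with the element in capitals, which starts 104 bases before the start site; Hspa1b has it at the same distance:
Hspa1a (chr17:34972157-34972406, minus strand): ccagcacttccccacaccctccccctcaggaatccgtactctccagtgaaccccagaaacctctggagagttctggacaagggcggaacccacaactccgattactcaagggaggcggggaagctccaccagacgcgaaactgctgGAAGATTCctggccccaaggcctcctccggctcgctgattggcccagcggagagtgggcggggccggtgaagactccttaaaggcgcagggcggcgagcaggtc

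Of the 13 endoplasmic reticulum chaperones and folding factors tested, none was variable in both libraries, beside 12.4% of all genes. Hspa5, at 52.8% and 48.2%, came closest. The antioxidant and metallothionein list had 2 variable genes of 10, and both were metallothioneins, Mt1 (91.1% and 81.3%) and Mt2 (121% and 143%). The antioxidant enzymes of the list were even, among them Gpx4 (18.1% and 15.2%) and Prdx6 (20.7% and 14.6%). Interferon response genes were low, with only Ifitm3 (173 and 169 CPM) above 50 CPM. The chemokines Ccl2 and Ccl7 and the cytokine Il6 had 0 UMIs in both libraries.

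The 10 genes of at least 200 CPM with the smallest excess CV, ribosomal and mitochondrial genes left out, were Atp5f1, Atp6v1g1, Pomp, Ndufs6, Park7, Nedd8, Atp6v1f, Pdcl3, Mpc2 and Psma2. Among them are genes of mitochondrial respiration and pyruvate entry (Atp5f1, Ndufs6, Mpc2), the vacuolar proton pump (Atp6v1g1, Atp6v1f) and the proteasome (Pomp, Psma2). Their estimates lie within counting noise, so their order is not resolved. For Atp5f1, at 232 and 238 CPM, the estimate was not above 0 in either library, and 2 standard deviations of counting allow an excess CV of up to 6.94% and 2.58%. The ribosomal protein genes had a median excess CV of 17.7% in both libraries, and none of 81 tested was variable, beside 12.4% of all genes.

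The share of genes with a TATA box differed between classes of excess CV. This was looked at after the variation of the genes was known, and is a description. TATAAA, the core of the TATA box, was looked for on the gene's own strand, starting 20 to 40 bases before the RefSeq start site. It was present there in 1 of 631 genes with a promoter in the table and an excess CV under 20% (0.158%), taking the mean of the libraries' squared values. The share was 11 of 761 (1.45%) from 20% to 35%, 6 of 589 (1.02%) from 35% to 50%, 12 of 260 (4.62%) from 50% to 100%, and 7 of 45 (15.6%) at 100% or more. Over all 2286 genes tested with a promoter it was 1.62%, and over all 27025 promoters 2.41%. Exact 95% binomial intervals were 0.00401% to 0.880% for the lowest class and 6.49% to 29.5% for the highest, covering counting error only. Median level differed little between these classes, from 89.2 to 119.8 CPM, and the lowest class held 66 of the ribosomal protein genes. The 7 genes of the highest class with it were Fos, Adamts1, 2210407C18Rik, Meg3, Rbp4, S100a4 and Rnd3. TATAAA anywhere in the 250 bases on either strand was in 42 of 262 variable genes (16.0%) and in 200 of 2286 tested (8.75%), beside 14.3% of all promoters. The AP-1 site TGANTCA was in 8.40% and 5.47%, beside 7.82% of all, and the cAMP response element TGACGTCA in 3.44% and 3.50%, beside 1.77% of all, both searched on both strands.

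Promoters of 5 variable genes with the TATA box in its place are shown with TATAAA in capitals. Fos encodes an AP-1 subunit, Adamts1 a metalloprotease that cleaves versican (excess CV 169.6% and 159%), Rbp4 the plasma carrier of retinol (126% and 127%), S100a4 a calcium-binding protein (128% and 117%), and Ccn1 is the matricellular gene described above:
Fos (chr12:85473640-85473889, plus strand): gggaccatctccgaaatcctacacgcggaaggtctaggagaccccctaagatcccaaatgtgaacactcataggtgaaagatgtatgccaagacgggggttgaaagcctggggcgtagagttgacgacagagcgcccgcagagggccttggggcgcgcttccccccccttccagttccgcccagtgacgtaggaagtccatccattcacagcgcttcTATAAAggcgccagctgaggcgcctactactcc
Adamts1 (chr16:85803114-85803363, minus strand): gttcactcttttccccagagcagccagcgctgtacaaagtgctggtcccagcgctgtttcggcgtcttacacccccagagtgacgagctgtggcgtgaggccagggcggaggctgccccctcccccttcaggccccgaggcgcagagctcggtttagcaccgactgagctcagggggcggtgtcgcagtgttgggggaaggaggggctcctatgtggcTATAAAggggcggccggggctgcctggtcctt
Rbp4 (chr19:38124812-38125061, minus strand): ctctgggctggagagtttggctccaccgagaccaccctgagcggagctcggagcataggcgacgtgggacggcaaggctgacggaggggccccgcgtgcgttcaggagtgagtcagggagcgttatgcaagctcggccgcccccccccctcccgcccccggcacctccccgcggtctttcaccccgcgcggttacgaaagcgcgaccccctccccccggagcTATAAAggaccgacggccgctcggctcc
S100a4 (chr3:90603520-90603769, plus strand): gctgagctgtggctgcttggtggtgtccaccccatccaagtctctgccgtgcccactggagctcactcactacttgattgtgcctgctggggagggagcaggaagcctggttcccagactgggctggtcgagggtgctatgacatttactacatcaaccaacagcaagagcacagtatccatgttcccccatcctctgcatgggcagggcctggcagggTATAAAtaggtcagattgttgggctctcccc
Ccn1 (chr3:145649986-145650235, minus strand): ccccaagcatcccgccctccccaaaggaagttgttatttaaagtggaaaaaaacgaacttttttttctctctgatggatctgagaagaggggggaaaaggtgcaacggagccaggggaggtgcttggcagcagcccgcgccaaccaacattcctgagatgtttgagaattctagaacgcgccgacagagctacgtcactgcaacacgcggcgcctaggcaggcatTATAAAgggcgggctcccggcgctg

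Not all markers of the lineage rose and fell together from cell to cell. Myh11 and Acta2 were nearly unrelated, at -0.02 in WT 1 and -0.07 in WT 2, while Acta2 and Tagln correlated at 0.60 and 0.61. Partners were sought among the 641 genes of at least 100 CPM and 30% excess CV in both libraries. Tagln was not among them, though it was closer to Acta2 than Ppp1r14a below. Of these genes, the closest to Myh11 were Mylk (0.73 and 0.77), Macf1 (0.73 and 0.69), a linker of actin and microtubules, and Synpo2 (0.66 and 0.69), an actin-bundling protein. The closest of them to Acta2 were Tpm2 (0.66 and 0.68), beta-tropomyosin, Ptgis (0.61 and 0.62), prostacyclin synthase, and Ppp1r14a (0.55 and 0.56), an inhibitor of myosin phosphatase. Both sets differ in the length of their transcripts: the exons of Myh11, Mylk, Macf1 and Synpo2 cover 7599, 11263, 31402 and 13089 bases in GENCODE M21, and those of Acta2, Tpm2, Ptgis and Ppp1r14a 2196, 2909, 2567 and 1367 bases. They also went in opposite directions with other transcripts of the cell. The summed ribosomal protein genes correlated with Myh11 at -0.38 and -0.40 and with Acta2 at 0.14 and 0.19. Malat1 correlated with Myh11 at 0.11 and 0.13 and with Acta2 at -0.29 and -0.27, and the reporter eGFP with Myh11 at -0.39 and -0.39 and with Acta2 at 0.37 and 0.40. The part of transcript length or RNA quality in these relations was not tested.

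The matrix markers had different partners within the same 641 genes. Eln was closest to Col1a2 (0.52 and 0.61), Col1a1 (0.47 and 0.58) and Loxl1 (0.44 and 0.58), and lowest with Tpm2 (-0.33 and -0.34). Mgp was closest to Arpc1b (0.57 and 0.52), a subunit of the Arp2/3 actin-branching complex, with Tspo (0.42 and 0.34) and Fn1 (0.50 and 0.32) next, and lowest with Tpm1 (-0.35 and -0.34). Eln and Mgp, both matrix genes, were hardly related, at 0.17 and 0.06.

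Summed over lists, the interstitial collagens and the basement membrane rose and fell together, at 0.80 and 0.81. These lists do not separate matrix compartments cleanly. The collagen list holds Col18a1 (1106 and 1240 CPM) and Col15a1 (277 and 295 CPM) of the basement membrane zone. Sparc makes up 37.2% of the basement membrane sum. Elastic fibre genes correlated with the collagens at 0.62 and 0.67, and the endoplasmic reticulum chaperones, which fold secreted proteins, with the collagens at 0.42 and 0.45. On the contractile side the myosin list correlated with the focal adhesion list at 0.63 and 0.64 and with the thin filament list at 0.59 and 0.57. The thin filament list was negative with elastic fibre genes, at -0.33 and -0.39, and with collagens, at -0.29 and -0.37. The myosin list was less so, at -0.21 and -0.31 and at -0.08 and -0.12. Lists outside the matrix were about as negative with the thin filament list. They were ion channels (-0.324 and -0.351), vasoactive receptors (-0.301 and -0.392) and regional transcription factors (-0.3 and -0.395). The reporter eGFP correlated with the thin filament list at 0.34 and 0.35. With collagens it stood at -0.365 and -0.338, and with elastic fibre genes at -0.136 and -0.116. The part of transcript length or RNA quality here was not tested. The focal adhesion list had no steady sign with the collagens, at 0.08 and -0.02. The thin filament list was also lower in cells with a higher sum of the muscle transcription factor list (-0.41 and -0.48). Mef2c made up 31.3% of that sum of 1069 and 1021 CPM. Srf held 19.0 and 18.2 CPM of it and Myocd 81.2 and 66.7 CPM, and neither was read alone. That list of factors correlated with the ribosomal protein genes at -0.41 and -0.46. Shares of 1 total are not free of each other, and the thin filament list alone takes over 6% of it. The sign of the thin filament and elastic fibre relation was the same with the 50 most abundant genes left out of the cell total.

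**Figure D5:**
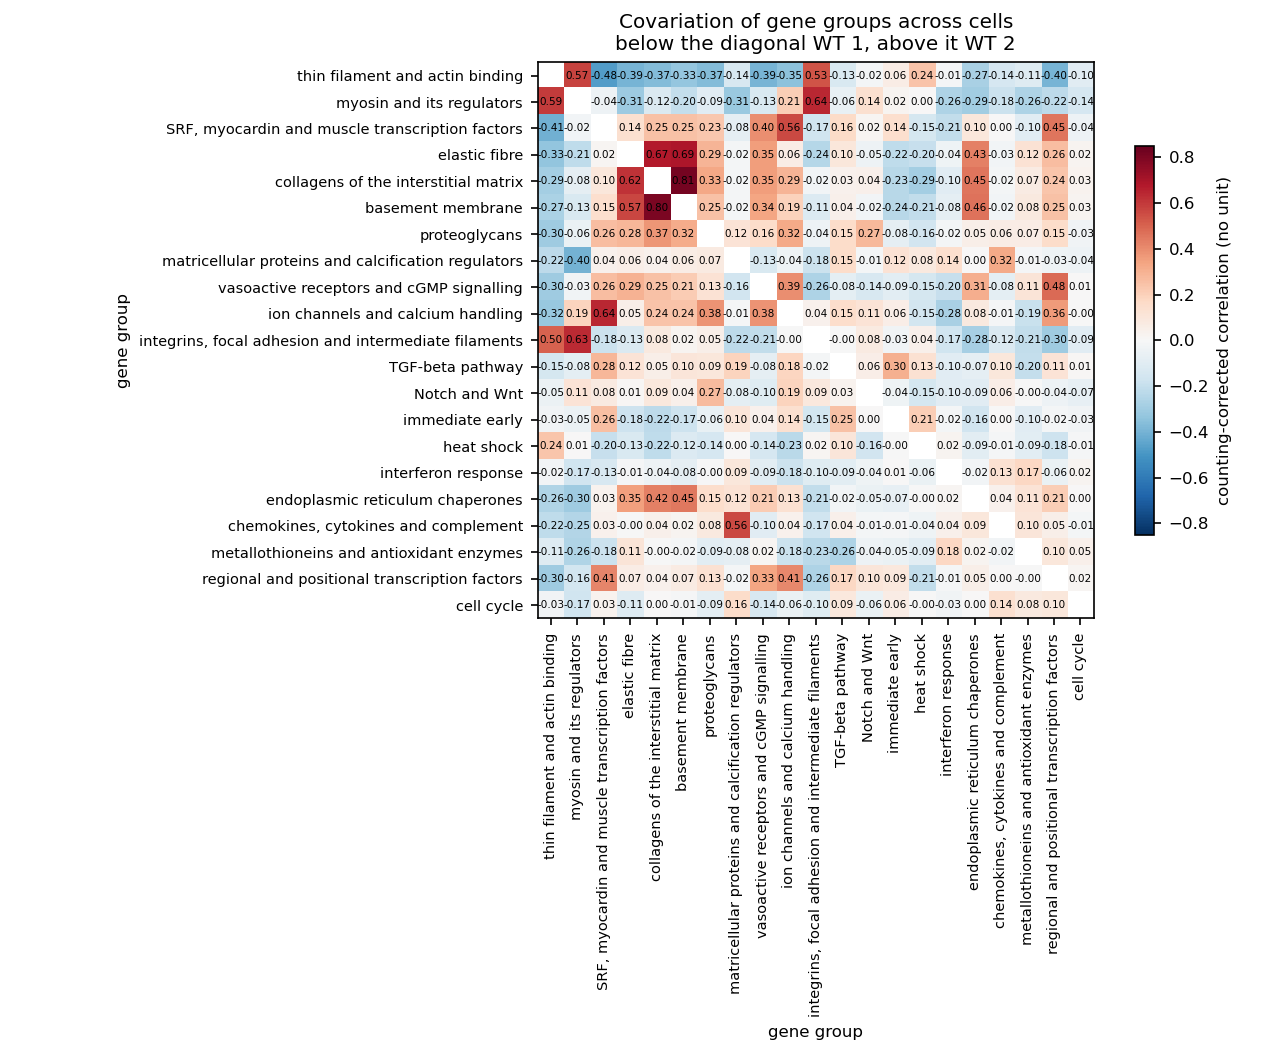
Counting-corrected correlation, across cells, of the summed levels of 21 gene groups; values under the diagonal are from WT 1 (2429 cells) and those above it from WT 2 (3265 cells). Elastic fibre, collagens and basement membrane form a block of values from 0.57 to 0.81, with the thin filament row negative against them, and matricellular proteins lie near 0 with all 3.

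Position along the body and cell division were also read. Transcription factors of the arch and outflow tract were present: Hand2 at 118 and 108 CPM, Foxc1 at 118 and 106 CPM and Prrx1 at 63.3 and 69.2 CPM. Of the Hox genes, which mark the level along the body axis, Hoxa3 stood at 47.6 and 44.9 CPM, Hoxb4 at 14.2 and 13.0 CPM and Hoxa5 at 9.13 and 8.09 CPM, while Hoxc6 had 0 UMIs and Hoxc9 had 0 and 1. In the cell cycle list the replication genes Pcna, the sliding clamp (38.0 and 34.8 CPM), and Mcm6, a helicase subunit (32.99 and 31.3 CPM), led, with a UMI in 40.4% and 39.6% and in 33.1% and 34.6% of cells. Markers of mitosis were rare. Mki67, a marker of cycling cells, had 0 UMIs in the 2429 cells of WT 1, which allows a share of up to 0.124% of cells with a UMI, and 58 UMIs in 2 cells of WT 2. Top2a, the topoisomerase of mitosis, had 5 UMIs in 5 cells of WT 1 and 91 in 5 cells of WT 2.

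The control libraries differed little from each other. Of 3035 genes with at least 50 CPM in either, 22 (0.725%) were at least 1.5-fold apart, 13 higher in WT 2 (0.428%) and 9 higher in WT 1 (0.297%), and the median absolute difference was 0.07 on the log2 scale. The largest was Atf3, a stress-induced transcription factor, at 160.5 CPM in WT 1 and 439 CPM in WT 2, and detected in 44.5% and 66.9% of cells. WT 2 was also higher in Hspa1a, Rgs5, Dusp8, Nfil3, Arrdc3 and in Hmgcs1 and Idi1 of cholesterol synthesis, and WT 1 in Hes1, Txnip, Smad7 and Ier5l. With 1 pair of libraries, differences between mice, handling or tamoxifen course cannot be told apart.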

How the data were processed

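Cells sorted from the ascending aorta and aortic arch were profiled with the Chromium 3′ v3.1 chemistry. The deposited matrices hold raw UMI counts per gene and barcode, and per the file headers their software was Cell Ranger 5.0.1. The mm10 build and Seurat 4.0 are named, without a role, in the submitters' processing notes. How the deposited barcodes were chosen is not given in the sources used here. Genes were used as listed, and 38 symbols stand on more than 1 row.

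CPM, detection shares and excess CV were computed in Python 3.11.15 with numpy 2.4.6, scipy 1.17.1 and pandas 2.3.3, in each library separately. Excess CV is the square root of the summed squared deviations from the level expected at each cell's total, less the counting variance, over the summed squares of those expected levels. No doublet caller was run, and no cell was left out beyond the 3 stated limits. Cell totals of the kept cells ran from a 5th percentile of 3236 and 5050 UMIs to 23090.4 and 23122 at the 95th in WT 1 and WT 2. The computation was tested on simulated data. Alternatives changed the cell filters, thinning to 5000 UMIs, the cell total, the level minimum and the library left out. Leaving out cells low in Malat1, or the 1% of cells highest in a gene, was added after the data had been seen. Coordinates of genes are from GENCODE M21 and promoters from RefSeq, both on GRCm38.

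The cells and gene lists were chosen with earlier results of these data known. Genes were named by rule: the 5 markers, the 25 highest levels, the 20 largest and 10 smallest excess CVs, 3 leading members and the most variable member of each list, the 10 largest differences between libraries, the closest 3 genes to a leading gene, and the 10 lowest ratios of observed to expected detection. Other list members were named for their role with their values known. Motifs and the TATA classes were likewise chosen after values had been seen. Values of some list members are not reported here.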

Additional observations from a re-analysis of the deposited data

How the results depend on the processing

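With 1 group and 2 libraries no result has a test. Only some correlations were rerun under the alternatives. They were thin filament with elastic fibre and with myosin, collagens with basement membrane and with elastic fibre, and Myh11 with Acta2 and with Mylk. None of these list correlations changed sign, nor did Myh11 with Mylk. For Myh11 with Acta2, which is near 0, a change of sign was not looked for. No paired analysis was possible because only control libraries were described and no groups were compared. With a mitochondrial limit of 5%, the summed myosin list was 25540 CPM and its correlation with the thin filament list 0.602, against 25870 CPM and 0.582 as means of the libraries. Without the 5% of cells with the most UMIs, that correlation was 0.566 and that of collagens with basement membrane 0.796, against 0.807. With each cell thinned to 5000 UMIs, median excess CV was 32.1% against 30.8%, 978 genes were detected in at least 50% of cells of both libraries against 2704, and these correlations were 0.602 and 0.797. With the 50 most abundant genes left out of the cell total, 532 genes were variable against 358, median excess CV was 32.3% and the correlations were 0.654 and 0.795. The sums then rose by construction to 89600 CPM (thin filament), 35840 CPM (myosin), 9412 CPM (elastic fibre) and 7903 CPM (collagens). A level minimum of 20 CPM in place of 50 gave 1058 variable genes and a median of 35.95%, and one of 200 CPM gave 84 and 27.1%, with more and fewer genes tested, against 358. Leaving out 1 library gave 445 to 460 variable genes and a median excess CV of 30.8% to 31.2%. There the level minimum and the 50% limit had to be met in the remaining library only, a looser rule than in both. The single-library counts of 429 and 422 above still required 50 CPM in both. Apart from the thinned detection count and the looser rule with 1 library left out, the cause of these shifts was not tested. The number of genes at least 1.5-fold apart between the libraries was 20 to 23 over the alternatives. Of the named genes, excess CV without the 1% of cells highest in the gene was 0.921 of its value at the median, from 0.492 to 0.989. Mcm2, a replication helicase subunit far under the level minimum, moved further, to 0.25 of its value with the mitochondrial limit of 5%, 0.36 without WT 1 and 1.639 without WT 2. Genes under 50 CPM give less than 1 UMI in a median cell, and their excess CV was not called. Tested genes under 65.0 CPM also give less than 1 UMI there. For some genes under 50 CPM the share of UMIs held by few cells is given below.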

Other observations

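A small set of cells was low in Malat1, under 10% of the library's median share. There were 121 such cells (4.98%) in WT 1 and 148 (4.53%) in WT 2. Their median total was 4713 and 5314 UMIs, against 15026 and 15625 in the other cells, and their median number of genes was 1588 and 1880. Acta2 stood at 23204 and 24867 CPM and Myh11 at 6122 and 6420 CPM in them. Ribosomal protein genes took 15.8% and 15.5% of their UMIs, against 12.1% and 12.3% over all cells.

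Several genes below 50 CPM had a large share of their UMIs in very few cells; they were picked after their values were seen. Vcam1, an adhesion molecule for leukocytes, had 24.1 and 23.5 CPM, and the 10 and 16 cells with 10 or more of its UMIs held 65.0% and 65.3% of them. For Dcn, decorin, 9 and 11 such cells held 36.6% and 52.6%. For Fosb, an AP-1 subunit, 9 and 26 such cells held 42.8% and 53.2%. Timp1, an inhibitor of matrix metalloproteases, had 197 UMIs in its highest cell of WT 2 and 20 in that of WT 1.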
